A study of Mus musculus with 4 samples.

Results

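The 10 genes described here make, modify or break down prostaglandins, and were taken by gene name from the deposited expression table, where all 10 of 10 were found among 46072 genes. They are Ptgds, Ptgs1, Ptgs2, Ptges, Ptges2, Ptgis, Tbxas1, Hpgd, Pla2g4a and Hpgds. All 10 were above 0 in each of the 4 libraries, so none was lost to the filter on low values. Of these genes 5 lie on chromosome 2, 2 on chromosome 1, 2 on chromosome 6 and 1 on chromosome 8 (GRCm38, GENCODE M21).

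Polyadenylated RNA of brain vasculature from wild-type, untreated mice was sequenced in 4 libraries, which form a single group and are called replicates 1 to 4 here. The labels give neither strain nor age, and describe the material as endothelial cells from laser microdissection (LCM), a method that excises selected cells from a section with a laser. The series title describes perfusion-fixed tissue and capture guided by immunolabelling. With 1 group there is no treated or control arm, so each gene was set against a fixed level and against other genes of the same library. Whether each library is from its own animal is not stated, so the spread behind a p-value here is that over these 4 libraries and may be technical. Moderated limma tests, and the SE given with them, also draw on the spread of other genes. Values are FPKM, that is, fragments per kilobase of transcript relative to all mapped fragments, and sums per library were 448678 to 482882. Counting intervals are not given because the depth in reads is unknown.

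Prostaglandins are short-lived lipid signals made from arachidonic acid. A phospholipase such as Pla2g4a frees arachidonic acid from membranes, and a cyclooxygenase (Ptgs1 or Ptgs2) turns it into prostaglandin H2. A terminal synthase turns that into prostaglandin D2, E2, prostacyclin or thromboxane, which then act on receptors of the cell surface. Hpgd inactivates some of these products, prostaglandin E2 among them. In brain vessels prostaglandin E2 is known as a mediator of fever, prostacyclin as a vasodilator and thromboxane as a vasoconstrictor, while prostaglandin D2 is known for its role in sleep.

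The labelled cell type was checked against markers of 11 cell types. Of 17 endothelial markers 13 lay above 1 FPKM and 1, the transcription factor Erg, lay below it (limma, Benjamini-Hochberg adjusted over 25206 genes). Over all tested genes 47.7% lay above and 40.1% below. With libraries rescaled to a fixed sum the marker counts were 15 and 0. Vascular endothelial cadherin, Cdh5, a defining marker, was low, at 0.602 to 1.41 FPKM, and did not pass. The endothelial list median was 3.51 to 4.76 FPKM across libraries. Medians of other lists in the same libraries were 124 to 166 FPKM for oligodendrocytes, 116 to 119 for neurons, 64.2 to 73.9 for astrocytes, 40.2 to 54.4 for choroid plexus and 15.3 to 17.9 for microglia. All of these were above the endothelial median in every library. Medians of 5.85 to 6.59 FPKM were measured for meningeal and perivascular fibroblasts and 3.57 to 5.03 for mural cells. The libraries thus held markers of many brain cells, and the cells that each transcript below came from were not tested. In such bulk libraries fewer cells of a type and less RNA per cell cannot be told apart.

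One gene of the family stood far above the others. Ptgds, the lipocalin-type prostaglandin D synthase, which also carries lipophilic ligands in cerebrospinal fluid (chromosome 2, 25466709 to 25470046), measured 2141, 1946, 2024 and 1965 FPKM in replicates 1 to 4. The other 9 members together summed to 31.3 to 38.5 FPKM per library. Ptgds therefore held 98.3% ± 0.218 (SD, n = 4) of the members' summed FPKM, and the 10 members together held 0.442% ± 0.0299 of the FPKM of all genes. Its 4 values lay close together, with a coefficient of variation (SD over mean) of 4.36%, against a median of 16.9% over the 13654 genes that averaged 1 FPKM or more. Among the 100 highest genes the median was 10.84%, and 1% of them had a lower value than Ptgds. Ptgds lay 9.98 ± 0.10 (SE) log2 units above 1 FPKM, on log2(FPKM + 1) (limma, adjusted p = 1.01e-07).

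**Figure D1:**
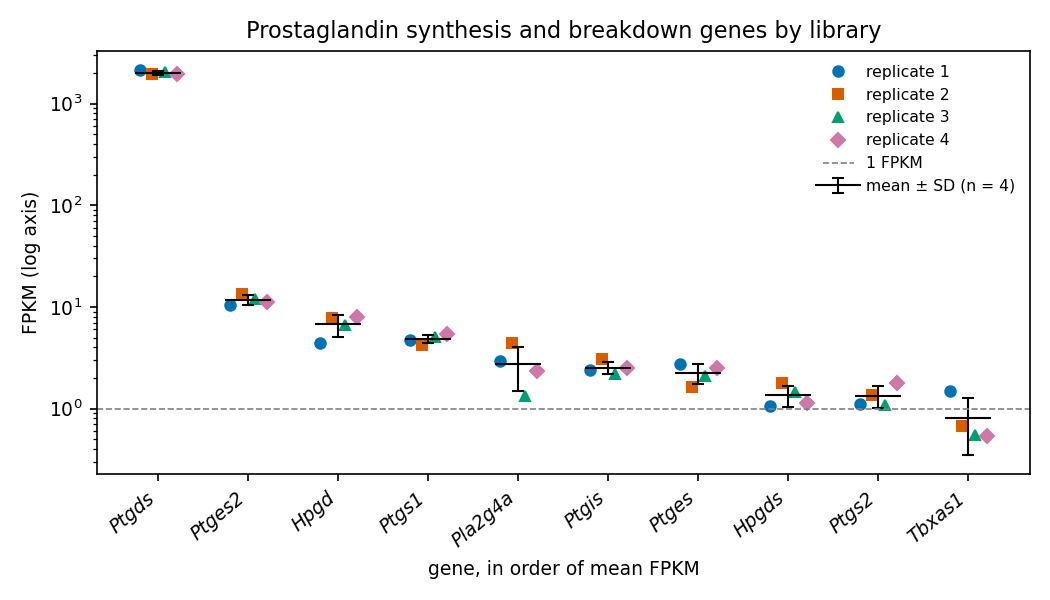
FPKM of the 10 genes in each of 4 libraries (coloured symbols) with mean ± SD in black, on a log axis, in order of mean. Ptgds sits at 1946 to 2141 FPKM, Ptges2 and Hpgd between 4.38 and 13.5, and Tbxas1 is above the dashed line at 1 FPKM in replicate 1 alone.

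Of the 10 members 7 lay above 1 FPKM and 0 below it (limma, moderated test with adjustment over all genes), beside 47.7% of all tested genes above and 40.1% below. At an unadjusted p under 0.05 the members' counts were the same, 7 above and 0 below. With each gene's own spread in place of the moderated one 6 lay above and 0 below, beside 11763 and 9380 of 25206 genes. The median member lay 0.83 above 1 FPKM on the log2(FPKM + 1) scale, against 0.27 over all genes tested. The 3 that passed in neither direction were Ptgs2, Hpgds and Tbxas1. When each library was rescaled to a fixed sum, as TPM has, the median of all genes rose by 0.73 on this scale. Then 9 members lay above 1, all but Tbxas1, beside 13693 of 25206 genes.

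At the entry step, Pla2g4a, the cytosolic phospholipase A2 that prefers arachidonate (chromosome 1, 149829618 to 149961290), measured 2.93, 4.39, 1.34 and 2.36 FPKM in replicates 1 to 4. Replicate 2 was the highest and replicate 3 the lowest, and this was the widest spread among the 9 members that averaged 1 FPKM or more, with a coefficient of variation of 46.2%. Of all genes at such a mean, 94.6% varied less. Pla2g4a lay 0.85 ± 0.22 (SE) log2 units above 1 FPKM, on log2(FPKM + 1) (limma, adjusted p = 0.0142). It no longer passed when replicate 1 was left out (adjusted p = 0.0505) or with the gene's own spread (limma fit without moderation, adjusted p = 0.0515).

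Of the 19 genes in the list of arachidonate release 9 lay above and 5 below 1 FPKM, 1 passed in neither direction and 4 were listed at 0 in all libraries, beside 47.7% above and 40.1% below over all tested genes. With libraries rescaled to a fixed sum 10 lay above and 3 below. The highest was Pla2g7, a secreted lipase that breaks down platelet-activating factor, at 115.6 ± 13.4 FPKM (SD, n = 4). Mgll, monoacylglycerol lipase, which frees arachidonic acid from an endocannabinoid in brain, measured 34.3 ± 3.09 FPKM and Pla2g12a, a secreted phospholipase, 23.7 ± 2.14. Each of these was higher than Pla2g4a in all 4 libraries. Daglb, a diacylglycerol lipase, measured 8.29 ± 1.13 FPKM, but its exons overlap those of Rac1 on the opposite strand, at 82.0 FPKM. The strand setting of the authors' counting is not stated, so that value is uncertain, as are those of Pla2g3 and Pla2g4b, whose exons also overlap other genes.

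Of the cyclooxygenases, Ptgs1 was the higher in every library. Ptgs1, cyclooxygenase 1, the form most cells make constantly (chromosome 2, 36230426 to 36252272), measured 4.74, 4.26, 5.05 and 5.41 FPKM in replicates 1 to 4. Ptgs2, cyclooxygenase 2, the form induced by inflammation and, in neurons, by activity (chromosome 1, 150100031 to 150108227), measured 1.10, 1.36, 1.08 and 1.78 FPKM. The ranges did not overlap, and the ratio of Ptgs1 to Ptgs2 within a library was 3.79 ± 0.825 (SD, n = 4). Ptgs1 lay 1.55 ± 0.09 (SE) log2 units above 1 FPKM, on log2(FPKM + 1) (limma, adjusted p = 2.48e-05). Ptgs2, at 0.21 ± 0.12, did not pass (limma, adjusted p = 0.165), and passed with libraries rescaled to a fixed sum (adjusted p = 0.00341).

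On chromosome 1, 138740 bases separate Ptgs2 from Pla2g4a, which lies on the opposite strand. Of 6 neuronal activity genes read in the same libraries, 5 were higher than Ptgs2 in all 4, while Npas4 (0.852, 1.61, 2.45 and 1.05 FPKM in replicates 1 to 4) was lower than Ptgs2 in replicates 1 and 4. Fos, an immediate early transcription factor, measured 12.5 to 20.9 FPKM and was 11.9 ± 2.59 (SD, n = 4) times Ptgs2 within a library, and Egr1, another, measured 27.5 ± 2.97 FPKM.

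Both known prostaglandin D synthases were measured, at very different levels. Hpgds, the haematopoietic type, known from mast cells and microglia (chromosome 6, 65117293 to 65144908), measured 1.07, 1.77, 1.46 and 1.13 FPKM in replicates 1 to 4. Ptgds was 1101 to 2000.4 times as high within a library. Hpgds lay 0.23 ± 0.12 (SE) log2 units above 1 FPKM, on log2(FPKM + 1), and did not pass (limma, adjusted p = 0.14), but passed with libraries rescaled to a fixed sum (adjusted p = 0.0035). Of 6 mast cell markers 2 were listed at 0 in all libraries and 4 lay below 1 FPKM, beside 40.1% of all tested genes. The summed level of the 6 was 0 to 0.856 FPKM. All 10 microglial markers lay above 1 FPKM, beside 47.7% of all tested genes, with a summed level of 238 to 337 FPKM.

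Of the 3 prostaglandin E synthases, the constitutive ones were the higher. Ptges2, the membrane-associated form (chromosome 2, 32395896 to 32405772), measured 10.5, 13.5, 12.1 and 11.1 FPKM in replicates 1 to 4. Ptges, the microsomal form that is induced together with cyclooxygenase 2, also in brain endothelium during fever (chromosome 2, 30889471 to 30929863), measured 2.73, 1.63, 2.08 and 2.51 FPKM. All 4 values of Ptges2 were above all 4 of Ptges, and the ratio within a library was 5.60 ± 1.98 (SD, n = 4). Ptges3, the cytosolic form, better known as the Hsp90 co-chaperone p23 and not among the 10 genes, measured 84.4 ± 9.38 FPKM, 7.197 ± 1.001 times Ptges2. Ptges2 lay 2.67 ± 0.08 (SE) log2 units above 1 FPKM, on log2(FPKM + 1) (limma, adjusted p = 1.34e-06), and Ptges 0.68 ± 0.14 above it (adjusted p = 0.00506).

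Prostacyclin synthase and thromboxane synthase are cytochrome P450 enzymes whose products have opposite effects on vessels and platelets. Ptgis, prostacyclin synthase (chromosome 2, 167191805 to 167240604), measured 2.386, 3.050, 2.197 and 2.503 FPKM in replicates 1 to 4. Tbxas1, thromboxane synthase, known from platelets and macrophages (chromosome 6, 38875404 to 39084585), measured 1.502, 0.676, 0.544 and 0.534 FPKM. Ptgis was the higher in every library, at 1.59 times Tbxas1 in replicate 1 and 4.04 to 4.68 times in the others.

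Ptgis lay 0.82 ± 0.12 (SE) log2 units above 1 FPKM, on log2(FPKM + 1) (limma, adjusted p = 0.00126). An exon of Ptgis overlaps 1110018N20Rik on the opposite strand, which measured 4.40 FPKM, so the value of Ptgis is uncertain. Tbxas1 did not pass (limma, log2 difference -0.17, adjusted p = 0.322). Without replicate 1 it lay below 1 FPKM (log2 difference -0.34, adjusted p = 0.023), and with libraries rescaled to a fixed sum its difference turned to 0.40 and did not pass (adjusted p = 0.155). Platelet markers summed to 6.02 FPKM in replicate 1 and to 4.16 to 5.44 in the others. Of these Itga2b, the largest part of the sum, Gp9 and Gp1bb were highest in replicate 1. Ppbp was lowest there, at 0.741 FPKM against 0.910 to 1.68 in the others. The median of the 6 perivascular macrophage markers was highest in replicate 1, at 1.48 FPKM against 0.518, 0.856 and 0.747 in replicates 2 to 4. Their sum there, 9.33 FPKM, lay within the 6.58 to 10.96 of the others. Mrc1 and Ms4a7 were highest in replicate 1, at 1.228 and 1.74 FPKM, with 1.226 and 1.53 in replicate 3. Pf4, Cbr2, Lyve1 and Cd163 were highest in replicate 4. Microglial markers summed to 284.6 FPKM in replicate 1, within 238 to 337. Of the 5 platelet markers Gp6 was listed at 0 in all libraries, 1 (Itga2b) lay above 1 FPKM and 1 (Gp9) below it. Over all tested genes 47.7% lay above and 40.1% below. With libraries rescaled 3 platelet markers lay above and 0 below. Among those 3 was Gp1bb, whose exons overlap Sept5 on the same strand, at 63.6 FPKM, so its value is uncertain. The part of these cells in the Tbxas1 value was not tested.

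Further synthases of the list are known to make prostaglandin F2 alpha. Fam213b, also named Prxl2b, measured 127.7 ± 17.4 FPKM (SD, n = 4) and Akr1b3, an aldose reductase, 35.7 ± 4.15, so both exceeded every member other than Ptgds in all 4 libraries. Akr1c18, a hydroxysteroid dehydrogenase, measured 2.33, 0.743, 0.928 and 0.926 FPKM in replicates 1 to 4. In all, 7 of 10 terminal synthases lay above 1 FPKM, 0 below and 3 in neither direction. Over all tested genes 47.7% lay above and 40.1% below.

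Breakdown genes were measured over a wide range of levels. Hpgd, the dehydrogenase that starts the inactivation of prostaglandins (chromosome 8, 56294585 to 56321043), measured 4.38, 7.83, 6.64 and 8.02 FPKM in replicates 1 to 4. Replicate 1 was the lowest, and the 4 values together lay 1.92 ± 0.15 (SE) log2 units above 1 FPKM, on log2(FPKM + 1) (limma, adjusted p = 8.97e-05). Ptgr2, a reductase that acts on the product of Hpgd, measured 31.2 ± 2.16 FPKM (SD, n = 4), and Hpgd was 0.145 to 0.261 times as high within a library. Cbr1, a carbonyl reductase that also takes prostaglandins, measured 71.7 ± 6.71 FPKM. Ptgr1, another prostaglandin reductase, measured 1.30, 0.628, 0.971 and 0.806 FPKM in replicates 1 to 4, and passed in neither direction.

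Of the 7 genes of breakdown and uptake 5 lay above 1 FPKM, 1 below and 1 in neither direction, beside 47.7% and 40.1% of all tested genes. The 1 below was Slco2a1, the transporter that takes prostaglandins up before Hpgd acts on them, at 0.133, 0.108, 0.365 and 0.0297 FPKM. Abcc4, which exports prostaglandins, measured 1.65 ± 0.268 FPKM (SD, n = 4). Slco2a1 was therefore lower than Hpgd in every library.

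The receptors were the lowest step. Of 9 prostanoid receptor genes 0 lay above 1 FPKM, 5 lay below and 3 did not pass (limma, all-gene adjustment). Over all tested genes 47.7% lay above and 40.1% below. At an unadjusted p under 0.05 the receptor counts were 0 above and 6 below. Ptgdr2, a prostaglandin D2 receptor, was listed at 0 in all libraries, and Ptgdr, the other, measured 0.157 to 0.523 FPKM. Ptger3, a prostaglandin E2 receptor, was the highest at 0.788 ± 0.177 FPKM (SD, n = 4), followed by the thromboxane receptor Tbxa2r at 0.709 ± 0.154. The prostacyclin receptor Ptgir was listed at 0 in 3 libraries and at 0.0851 FPKM in replicate 2. With libraries rescaled to a fixed sum, 1 receptor (Ptger3) lay above 1 and 1 (Ptgir) below. Ptger4 and Ptger1 have exons that overlap other genes on the opposite strand, and their values are uncertain for that reason.

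**Figure D2:**
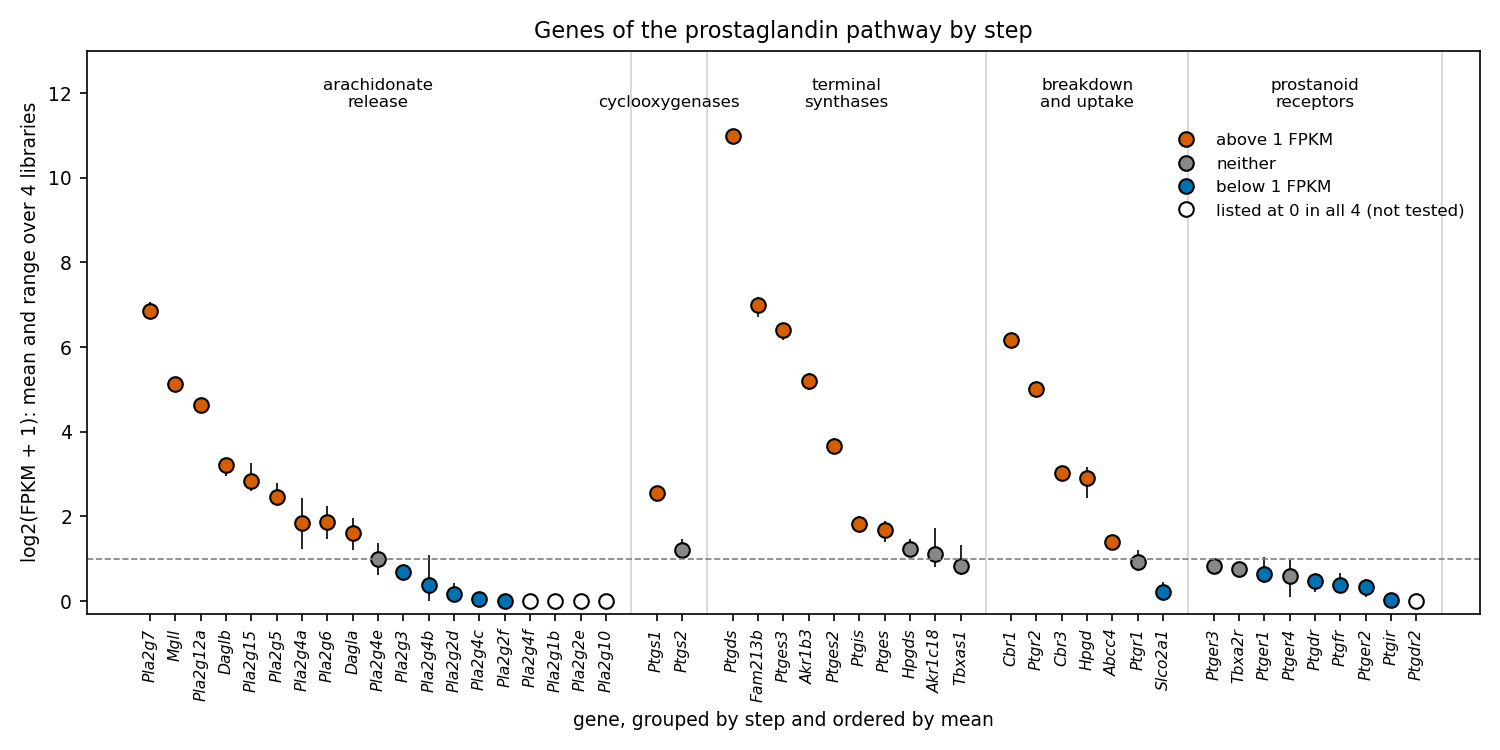
Mean log2(FPKM + 1) over 4 libraries (points, with a line from the lowest to the highest library) for 47 genes of 5 steps, coloured by the test against 1 FPKM (dashed line). Ptgds is the highest of these genes, and no receptor passes as above the dashed line, although Ptger3 does with libraries rescaled to a fixed sum.

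The lipoxygenase branch, which turns arachidonic acid into leukotrienes and related lipids, was read for comparison. Of its 11 genes 4 lay above 1 FPKM, 5 below and 1 in neither direction, beside the same 47.7% and 40.1% of all tested genes, and 3 lay below with libraries rescaled. Ltc4s, leukotriene C4 synthase, measured 36.9 ± 4.35 FPKM and Lta4h, leukotriene A4 hydrolase, 16.3 ± 3.19 (SD, n = 4). Alox5, the lipoxygenase that starts leukotriene synthesis, lay below 1 FPKM at 0 to 0.325.

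In the order of mean FPKM, the members ran Ptgds, Ptges2, Hpgd, Ptgs1, Pla2g4a, Ptgis, Ptges, Hpgds, Ptgs2 and Tbxas1. Of the 9 neighbouring pairs 2 did not overlap in range. Ptgds lay 7.31 ± 0.20 (SD, n = 4) above Ptges2 on the log2(FPKM + 1) scale and Ptges2 0.75 ± 0.27 above Hpgd, each in 4 of 4 libraries (exact 2-sided sign-flip test, p = 0.125, the smallest that 16 sign patterns allow, adjusted p = 0.375 over 9 pairs). The other 7 neighbours overlapped. Hpgd was above Ptgs1 in 3 of 4 libraries, while Pla2g4a and Ptgis, Ptgis and Ptges, and Hpgds and Ptgs2 each changed places between libraries, with the higher mean ahead in 2 of 4. Without replicate 1 the number of pairs with no overlap was 4.

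Against the median of the endothelial markers, Ptgds and Ptges2 were the higher in every library and 5 members the lower in every library. Ptgds lay 8.58 ± 0.12 (SD, n = 4) above the median of the 17 endothelial markers on the log2(FPKM + 1) scale and Ptges2 1.28 ± 0.21 above it. Those below in 4 of 4 libraries were Ptgis at -0.58 ± 0.22, Ptges at -0.71 ± 0.29, Hpgds at -1.17 ± 0.22, Ptgs2 at -1.19 ± 0.34 and Tbxas1 at -1.57 ± 0.27. Hpgd was above it in 3 of 4 libraries, at 0.52 ± 0.47, Pla2g4a below it in 3 of 4, at -0.55 ± 0.51, and Ptgs1 above it in 2 of 4, at 0.15 ± 0.25.

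By limma's moderated test 3 members lay above the endothelial median and 6 below it, all but Ptgs1, beside 31.5% of all tested genes above and 60.3% below. The median member lay at -0.57 and the median of all tested genes at -1.13. The reference is the median of the 17 endothelial markers themselves, so a near-even split of them around it is built in. In the same test 8 of them lay above it and 8 below. A level below it therefore does not set a gene apart from endothelial markers. In that fit every gene shares the error of the reference and the spread is pooled over all genes without limit, so its p-values are too small and none is printed. With each gene's own spread (limma fit without moderation, adjusted over all genes) 2 members lay above and 5 below, beside 7473 and 14596 of 25206 genes. They were those named above as higher or lower in every library, with adjusted p from 0.000413 for Ptgds to 0.0191 for Ptges. Hpgd (adjusted p = 0.12), Pla2g4a (adjusted p = 0.131) and Ptgs1 (adjusted p = 0.322) did not pass. With the mean of the endothelial list as the reference Hpgd lay at -0.01 and Ptgs1 at -0.38.

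**Figure D3:**
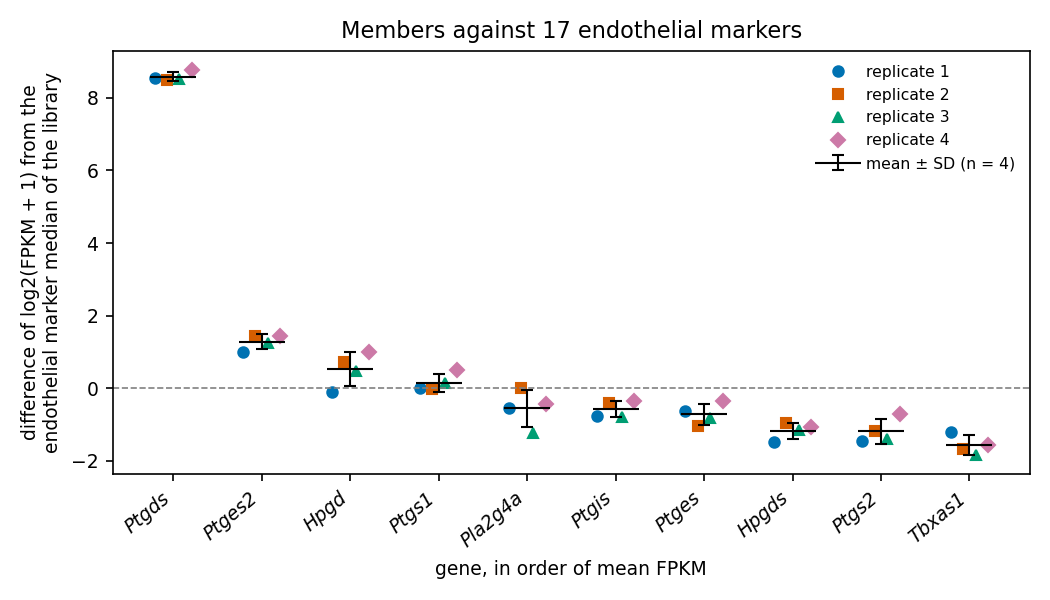
Difference of log2(FPKM + 1) between each of the 10 genes and the median of 17 endothelial markers in the same library, with mean ± SD over 4 libraries in black. Ptgds and Ptges2 lie above 0 in all 4 libraries, and Ptgis, Ptges, Hpgds, Ptgs2 and Tbxas1 below 0 in all 4.

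Ptgds was also set beside genes of the cell types it is known from, which are oligodendrocytes, leptomeninges and choroid plexus. Mbp, myelin basic protein, measured 2780, 3622, 2987 and 3359 FPKM in replicates 1 to 4, and Ptgds was 0.643 ± 0.103 (SD, n = 4) times Mbp within a library. Ttr, transthyretin, the leading transcript of choroid plexus epithelium, measured 13933, 11398, 15859 and 16782 FPKM, and Ptgds was 0.142 ± 0.0244 times Ttr. Dcn, decorin, made by meningeal and perivascular fibroblasts, measured 29.6, 30.1, 26.8 and 25.9 FPKM, and Ptgds was 72.1 ± 5.18 times Dcn. Against Cldn5, the main claudin of brain endothelium, Ptgds was 106 ± 3.69 times as high. Ttr was lowest and Mbp highest in replicate 2, where Ptgds was lowest at 1946 FPKM. Ttr was highest in replicate 4, where Ptgds was nearly as low, at 1965 FPKM. In replicate 1, where Ptgds was highest, Mbp was lowest and Ttr was neither highest nor lowest. The coefficient of variation was 16.4% for Ttr and 11.8% for Mbp, against 4.36% for Ptgds. The part of each cell type in the Ptgds value was not tested.

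**Figure D4:**
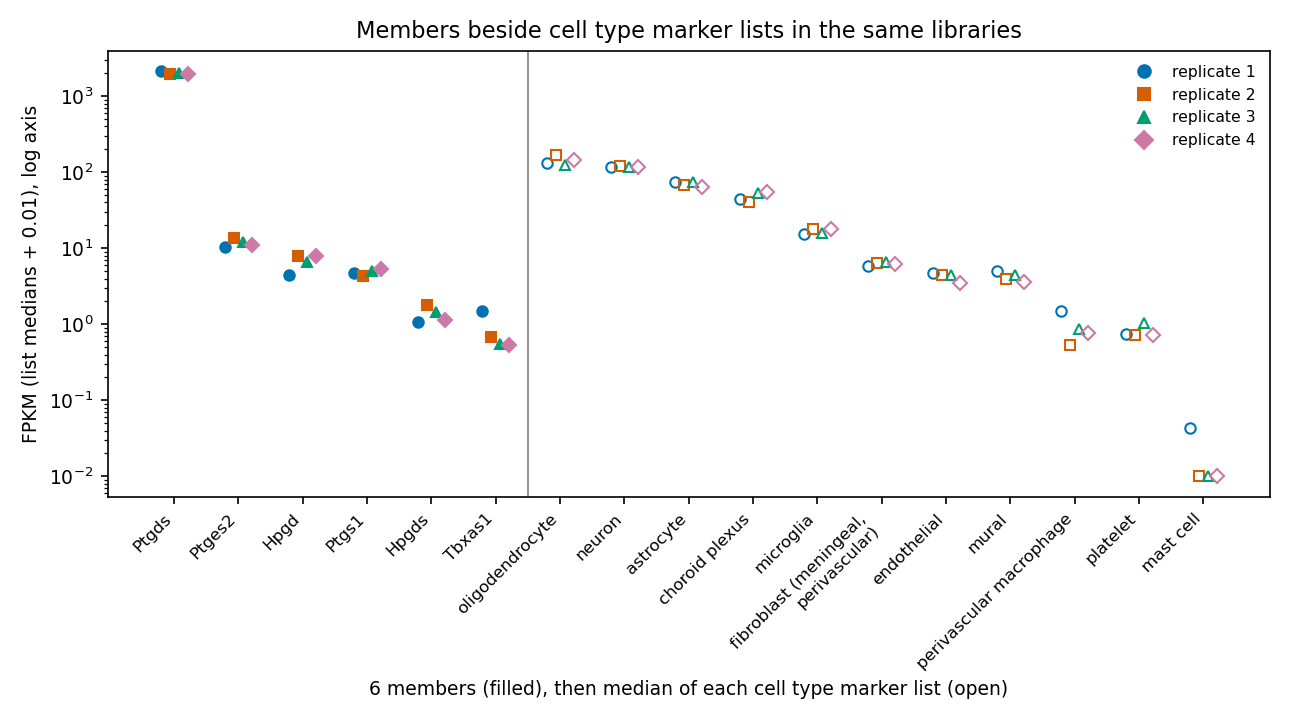
FPKM of 6 of the genes (filled symbols) and the median FPKM of 11 cell type marker lists with 0.01 added (open symbols) in each of 4 libraries, on a log axis. Ptgds lies above every list median, and Hpgds and Tbxas1 lie below the endothelial median in all 4 libraries.

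By closeness of level over the 4 libraries (Euclidean distance of log2(FPKM + 1)), the 3 genes nearest to Ptgds were Cst3, cystatin C, at 1944 ± 91.5 FPKM and a distance of 0.244, Tmsb4x, a thymosin, at 1951 ± 147 and 0.303, and Ppia, cyclophilin A, at 1885 ± 134 and 0.334 (SD, n = 4). Nearest to Ptgis were Gm14270 at 0.0594, the endothelial receptor Tek at 0.0796 and Gm26881 at 0.142. Nearest to Hpgd were Ypel1 at 0.0559, Gm2464 at 0.179 and the endothelial gene Emcn at 0.184. Ptgis and Hpgd are shown because a gene of the endothelial list was among their 3 nearest, which held for no other member. They were thus picked by that outcome, and a like level does not show a shared cell of origin, which was not tested. With 4 libraries of 1 group this measure mainly reads the level.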

How the data were processed

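Poly(A) RNA-seq of 4 libraries was read from 1 table of FPKM that the authors deposited, with 46072 genes. StringTie 2.2.1, HISAT2 2.2.1, bcl2fastq 2.20, SAMtools and GRCm38 are named, per the submitters' processing notes, without role or order. The annotation release, filters, strand setting and depth were not given in the sources used here. Because the scaling uses the mapped total, very high genes lower all others. An exact 0 may be a failed estimate.

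Columns were matched to libraries by the library names in the labels, and 0 columns were left out. Values were analysed as log2(FPKM + 1), which understates folds of low genes. limma 3.58.1 in R 4.3.3 tested, 2-sided with a mean-variance trend, each of 25206 genes above 0 in any library against 1 FPKM and, within library, against the median of 17 endothelial markers, with Benjamini-Hochberg adjustment over all genes and a threshold of 0.05. The step was also run on simulated normal log values with the genes' spreads shuffled. That run lacks the real relation of mean and variance, so it does not check the p-values given here. In the within-library comparison the pooled spread had no finite prior degrees of freedom, so a fit with each gene's own spread (3 degrees of freedom) was added after seeing the data. Positions and exon overlaps came from GENCODE M21, which held 45137 of the table's gene identifiers. Prxl2b was found under its synonym Fam213b in RefSeq's table for GRCm38.p6.

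The members and gene lists were chosen with earlier results of these data known. Named genes are the 10 members, the genes of 7 pathway lists, the 2 highest and the lowest of each of 11 marker lists, and the 3 genes nearest in level to a member. Cdh5, Cldn5, the platelet and macrophage markers Gp9, Gp1bb, Mrc1, Ms4a7 and Lyve1, and genes named for exon overlap fall outside that rule. They were chosen after their values were seen. Alternatives covered the pseudocount, filters, scaling, variance model, level, reference and each library left out. Figures were drawn with matplotlib 3.10.9.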

Additional observations from a re-analysis of the deposited data

Results flagged for a closer look

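Of 49 genes of the pathway and activity lists above 0 in all 4 libraries, 5 had a library whose gap to the nearest other, divided by the range, passed Dixon's critical value for 4 samples. Chance gives about 1 in 20 such cases. Among the 10 prostaglandin genes this was Tbxas1, thromboxane synthase, at 1.502 FPKM in replicate 1 against 0.534 to 0.676 in the others (gap 0.854 of the range). The prostaglandin F synthase Akr1c18 was also highest in replicate 1, at 2.33 FPKM against 0.743 to 0.928 (gap 0.884). The secreted phospholipase Pla2g5 was highest in replicate 3, at 5.94 FPKM against 3.97 to 4.16 (gap 0.903). The lipoxygenase Alox12b was lowest in replicate 3, at 0.0262 FPKM against 0.881 to 1.03 (gap 0.852). The leukotriene receptor Cysltr1 was highest in replicate 4, at 0.49 FPKM against 0.292 to 0.325 (gap 0.831). The cause was not tested in any of these.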

How the results depend on the processing

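No paired analysis was possible because the series has 1 group. Of 220 alternative values for single members against either reference, 205 kept their direction and side of the threshold, 5 gained the call, 6 lost it and 4 changed sign. Those 4 were Tbxas1 against 1 FPKM with libraries rescaled to a fixed sum (log2 difference 0.402) and against a level of 0.5 FPKM (0.2431), and Hpgd (-0.0077) and Ptgs1 (-0.3788) against the mean of the endothelial list. Many of these alternatives come from the moderated comparison with the endothelial reference, whose p-values are too small, so a call kept there says little. In that comparison the call of Hpgd was lost without replicate 4 and that of Pla2g4a without replicate 3. Both were also lost with each gene's own spread. With 1 library left out, 0 to 1 members lay below 1 FPKM, the 1 being Tbxas1 without replicate 1, and 2 to 4 neighbouring pairs did not overlap. Log2 differences of neighbours then ran from -0.098 to 0.1899 for Pla2g4a against Ptgis, from -0.0297 to 0.2246 for Ptgis against Ptges and from -0.0581 to 0.1497 for Hpgds against Ptgs2. Ptgs2 and Hpgds passed as above a level of 0.5 FPKM (adjusted p = 0.0055 and 0.00501).

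Of 58 genes in 6 pathway lists 26 lay above 1 FPKM and 16 below, beside 47.7% and 40.1% of all tested genes. The 58 include genes listed at 0 in all libraries, which were not tested, so their share is not over the same base. The count of pathway genes below was 8 with libraries rescaled to a fixed sum and 9 at a level of 0.5 FPKM. The counts above were then 32 and 30. With no filter 30135 of all genes lay below 1 FPKM and 36206 below the endothelial median, and with a mean of at least 0.1 FPKM required 5197 and 10122, against 10104 and 15200, because fewer or more low genes were tested. The members' share of summed FPKM was 0.494% with mitochondrial genes left out of the sum. Depth limits are unknown, since the files give no reads.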
